A study of Mus musculus with 2 samples.

Results

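Regions of captured methylated DNA that lie 2 to 10 kb upstream of a transcript, outside every listed transcript, were followed in 2 liver libraries. They made up 3760 of the 97063 regions listed for the Pemt-/- library and 5207 of the 131279 regions listed for the Pemt+/+ library. A region was taken when it neither overlapped nor lay inside or over any RefSeq transcript, was placed upstream of at least 1 transcript, and had all of its upstream distances above 2000 bp. The lists themselves give distances only up to 10 kb, which sets the outer limit. These distal upstream regions were 3.87% of all regions in Pemt-/- (95% Wilson confidence interval 3.75 to 4.0%) and 3.97% in Pemt+/+ (3.86 to 4.07%).

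The study asked how the loss of Pemt, the enzyme that methylates phosphatidylethanolamine to phosphatidylcholine, changes the mouse liver under a high fat-high sucrose (HFHS) diet. Per the sample records, HFHS chow was given between 5 and 25 weeks of age, when the livers were taken. The 2 libraries differed by label in the Pemt genotype only. The Methods give several mice per genotype, and how many animals each library holds was not established here. The Methods describe male mice, and give livers collected at 1 to 4 weeks of feeding just before the enrichment step, so the age of these livers is stated differently in the records and in the Methods. Methylated DNA was captured with a kit that binds methyl-CpG and sequenced, and the records, unlike the Methods, mention bisulphite conversion beforehand. There was 1 library per genotype, so the data hold no replicates, no test was possible, and each comparison is of these libraries and not of the genotypes. The intervals given for shares and tags cover counting error only. The liver was taken whole, so a region methylated in all cells and one methylated in some cell types cannot be told apart.

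DNA methylation in mammals sits mostly on cytosines that precede a guanine (CpG), and most CpGs between genes are methylated in adult tissues. CpG-rich promoters are usually free of methylation, whereas the DNA a few kb upstream of a gene is a mixture of methylated background and of distal elements, such as enhancers and imprinting control regions, whose methylation can differ between cell types or between the parental alleles. A capture of this kind reports where methylated fragments pile up, and it does not give the methylated share of a CpG.

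The sequences of the regions were not analysed here, since their positions are on the mouse build mm9. For 5 genes described below, the promoter stretches next to the transcripts are shown instead. They cover only a small part of the DNA between the region and its gene. These are the 250 bases before the transcript start as RefSeq places it on GRCm38.p6, 5′ to 3′ on the strand of the gene, with every CpG in capitals. Positions on that build cannot be laid beside the positions of the regions. In both libraries each of the 5 genes had a region 2 to 10 kb upstream and no listed region over its 5′ end or within 2 kb upstream.
Foxa1, chr12:57546112-57546361 on the minus strand: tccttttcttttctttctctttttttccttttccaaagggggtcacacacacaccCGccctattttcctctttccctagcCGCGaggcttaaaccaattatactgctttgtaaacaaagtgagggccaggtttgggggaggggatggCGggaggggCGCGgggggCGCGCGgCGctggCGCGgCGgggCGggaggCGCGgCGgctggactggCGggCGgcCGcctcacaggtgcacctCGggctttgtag
Cpt1a, chr19:3323051-3323300 on the plus strand: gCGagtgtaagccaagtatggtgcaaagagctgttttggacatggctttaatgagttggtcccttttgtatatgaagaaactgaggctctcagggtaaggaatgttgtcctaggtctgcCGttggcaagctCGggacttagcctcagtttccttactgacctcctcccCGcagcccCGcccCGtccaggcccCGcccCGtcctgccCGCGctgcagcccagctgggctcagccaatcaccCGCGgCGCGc
Chkb, chr15:89429928-89430177 on the minus strand: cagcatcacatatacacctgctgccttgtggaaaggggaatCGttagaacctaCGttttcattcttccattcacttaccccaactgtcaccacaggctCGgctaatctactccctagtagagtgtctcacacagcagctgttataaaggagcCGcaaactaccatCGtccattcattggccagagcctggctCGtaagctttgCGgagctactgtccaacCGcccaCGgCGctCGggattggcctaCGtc
Bhmt, chr13:93637759-93638008 on the minus strand: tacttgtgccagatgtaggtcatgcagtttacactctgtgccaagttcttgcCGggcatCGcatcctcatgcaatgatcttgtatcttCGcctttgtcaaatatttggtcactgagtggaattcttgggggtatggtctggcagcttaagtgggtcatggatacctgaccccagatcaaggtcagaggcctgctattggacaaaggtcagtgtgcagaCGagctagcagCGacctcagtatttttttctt
Fbxo31, chr8:121578807-121579056 on the minus strand: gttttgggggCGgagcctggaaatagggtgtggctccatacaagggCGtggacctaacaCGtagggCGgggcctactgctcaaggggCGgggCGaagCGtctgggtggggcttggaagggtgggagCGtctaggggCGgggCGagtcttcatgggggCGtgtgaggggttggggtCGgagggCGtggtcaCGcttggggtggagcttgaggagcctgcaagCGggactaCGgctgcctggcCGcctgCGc
The dinucleotide CG, which reads the same on both strands, occurred 21 times in the Foxa1 stretch, 18 times in that of Fbxo31, 14 times in that of Cpt1a, 12 times in that of Chkb and 5 times in that of Bhmt. Over the 22862 genes with a single window in the table, the median was 5 and 91.1% of the stretches held at least 1 CG. A comparison of promoter CpG content between genes with and without a distal upstream region was void, because only 79.5% of the Pemt-/- genes and 79.2% of the Pemt+/+ genes had a promoter in the table, below the 80% required.

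The longer list of each library was used for the values that follow, and a tag is a read counted in a region. In the longer lists a region of any position held a median of 13 tags in Pemt-/- and 17 tags in Pemt+/+, with totals over the listed regions of 1582080 and 2847831. Totals of the sequenced reads were not used here. Tag ratios were therefore read against the median ratio of all paired regions.

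The distal upstream regions covered 1.7 Mb in Pemt-/- and 2.37 Mb in Pemt+/+ and held 58402 and 107226 tags. A median region was 415 bp long with 13 tags in Pemt-/-, and 417 bp long with 16 tags in Pemt+/+. The smallest held 8 tags and the largest 285 in Pemt-/-, against 9 and 265 in Pemt+/+. At least 50 tags were reached by 21 regions (0.559%) in Pemt-/- and by 220 (4.23%) in Pemt+/+, against 1.08% and 4.9% of all regions. The median fold enrichment over background was 17.9 in Pemt-/- and 17.7 in Pemt+/+. In Pemt-/- it was 16.4 for regions inside transcripts and also 16.4 for regions with a transcript on their downstream side only, and in Pemt+/+ it was 16.1 for both. Regions with no transcript within 10 kb had medians of 17.9 and 17.6, and the nearer regions within 2 kb upstream had medians of 18.2 and 17.5. The median of the distal upstream regions was thus near that of regions without a transcript and of the nearer upstream regions, and above that of regions inside or only downstream of transcripts. The quartiles of these classes overlapped, and those of the distal upstream regions ran from 14.4 to 22.6 (Pemt-/-) and from 13.8 to 23.3 (in the Pemt+/+ list).

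Along the 8 kb the regions were spread almost evenly. Each 1 kb of distance held 422 to 503 regions in Pemt-/- and 582 to 703 in Pemt+/+. The mirror image, regions lying only downstream of transcripts at the same distances, gave 372 to 406 regions per kb in Pemt-/- and 509 to 538 in Pemt+/+, fewer in every kb in both libraries. Regions that lie upstream of 1 transcript and downstream of another count with the upstream ones by the rule, and 601 regions (16%) of Pemt-/- and 824 (15.8%) of Pemt+/+ were of that kind. Without them 3159 upstream regions stood against 3060 on the downstream side in Pemt-/-, and 4383 against 4196 in Pemt+/+, so most of the excess was set by the rule. The median distance to the nearest transcript that a region lay upstream of was 5893.5 bp in Pemt-/- and 5923 bp in Pemt+/+. Median tags per kb of distance stayed between 12 and 13 in Pemt-/- and between 15 and 17 in Pemt+/+, and median fold enrichment stayed between 17.2 and 18.5 and between 16.3 and 17.7.

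**Figure D1:**
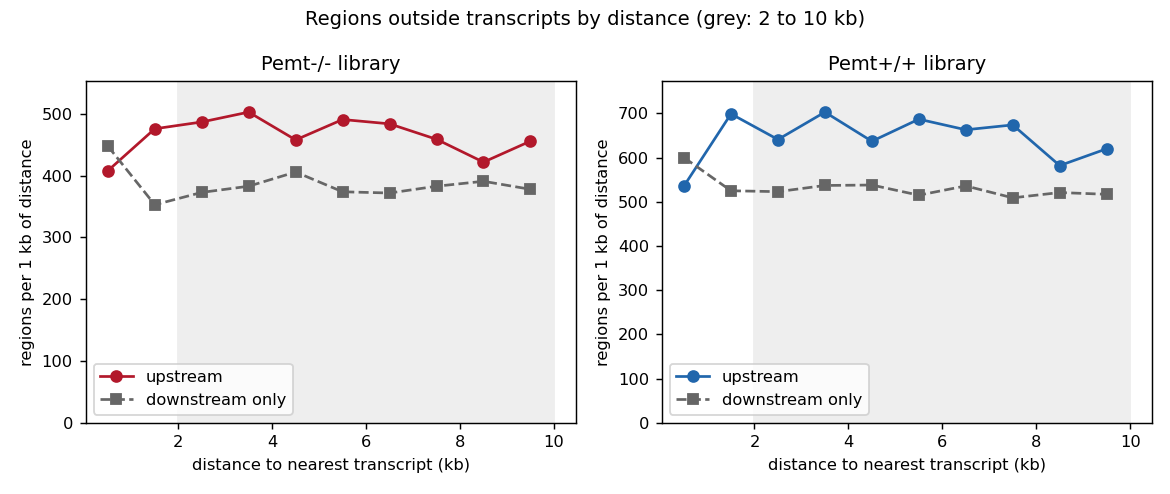
Number of listed regions outside transcripts (y axis) in each 1 kb of distance (x axis, kb) for the Pemt-/- and the Pemt+/+ library. Filled circles are regions upstream, grey squares regions downstream only, and the grey band marks 2 to 10 kb. For upstream regions the distance is to the nearest transcript they lie upstream of, even where another transcript is nearer. Within the band the upstream line stays between 422 and 503 in Pemt-/- and between 582 and 703 in Pemt+/+, above the downstream line throughout.

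At the lower limit, the nearest distal upstream region of Pemt-/- lay 2001 bp from Col2a1, which encodes the chain of cartilage collagen, and held 12 tags, while a region 1999 bp from Kctd17 with 8 tags fell just outside. In Pemt+/+ the nearest lay 2001 bp from Nhp2, a component of small nucleolar ribonucleoproteins, with 9 tags, and a region 2000 bp from Cdc37 with 15 tags fell outside. The farthest lay 9999 bp from Sstr3, a somatostatin receptor, in Pemt-/- and 10000 bp from Trim60 in Pemt+/+.

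The regions were upstream of 3393 genes in Pemt-/- and 4413 genes in Pemt+/+. Both lists contained 2967 of these genes, which was 87.4% of the Pemt-/- genes and 67.2% of the Pemt+/+ genes. Of all regions of any position, 83.3% in Pemt-/- and 61.6% in Pemt+/+ overlapped a region of the other library. The share of genes in common was not computed for other positions. Most regions (95.2% and 95.1%) were upstream of a single gene, and 179 and 257 were upstream of several. A gene had at least 2 such regions in 524 cases (15.4%) in Pemt-/- and in 923 cases (20.9%) in Pemt+/+, and no gene had more than 4.

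Fam98a, on chromosome 17, was the gene with 4 regions in Pemt-/-, and it also had 4 in Pemt+/+. From the nearest to the farthest they held 14, 21, 19 and 36 tags in Pemt-/- and 20, 34, 32 and 75 in Pemt+/+, so that the farthest region held the most in either library. Coq3, a methyltransferase of coenzyme Q synthesis, had 3 regions with 56, 27 and 42 tags in Pemt-/- and 2 regions with 153 tags together in Pemt+/+. Uba2, a subunit of the SUMO-activating enzyme, had 3 regions with 31, 33 and 37 tags against 2 regions with 134 tags together. Eif1a had 3 in Pemt-/- with 93 tags in all and 2 in Pemt+/+ with 134. In raw tags Ap4e1 alone of these 5 held more in Pemt-/-, with 76 over 3 regions in Pemt-/- and 65 over 3 regions in Pemt+/+. These sums were not divided by the median ratio of all pairs. In Pemt+/+ the other genes with 4 regions and the most tags were BC016423 (122 tags), Rab3ip (84), Gm13154 (83) and Mterf (82), which had 3, 2, 2 and 1 regions in Pemt-/-.

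Genes with a distal upstream region also carried other regions more often. A region inside the gene was listed for 64.5% of the 3324 protein-coding genes with a distal upstream region in Pemt-/- (62.9 to 66.1%) and for 39.9% of the genes without one (39.1 to 40.6%), and in Pemt+/+ the shares were 70.6% (69.2 to 71.9%) and 43.4% (42.6 to 44.1%). Protein-coding here means a gene with an NM transcript, of which the RefSeq table holds 21031. A region over the 5′ end or within 2 kb upstream was listed for 8.72% against 5.36% in Pemt-/- and for 12% against 7.14% in Pemt+/+. A region within 10 kb downstream was listed for 41.2% against 25.5% and for 51.7% against 31.0%. Gene length moved with this, as the genes with a distal upstream region had a median length of 23.1 kb in Pemt-/- against 16.9 kb for the others, and of 22.9 kb against 16.6 kb in Pemt+/+. In 4 equal groups of genes by length, the share with a region inside was also given separately. It was 17.6% against 8.51% among the shortest genes of Pemt-/- and 96.1% against 69.1% among the longest, and 24.2% against 11.1% and 97.3% against 69.5% in Pemt+/+. Genes still differed in length within each group, and the part of gene length in these shares was not tested.

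**Figure D2:**
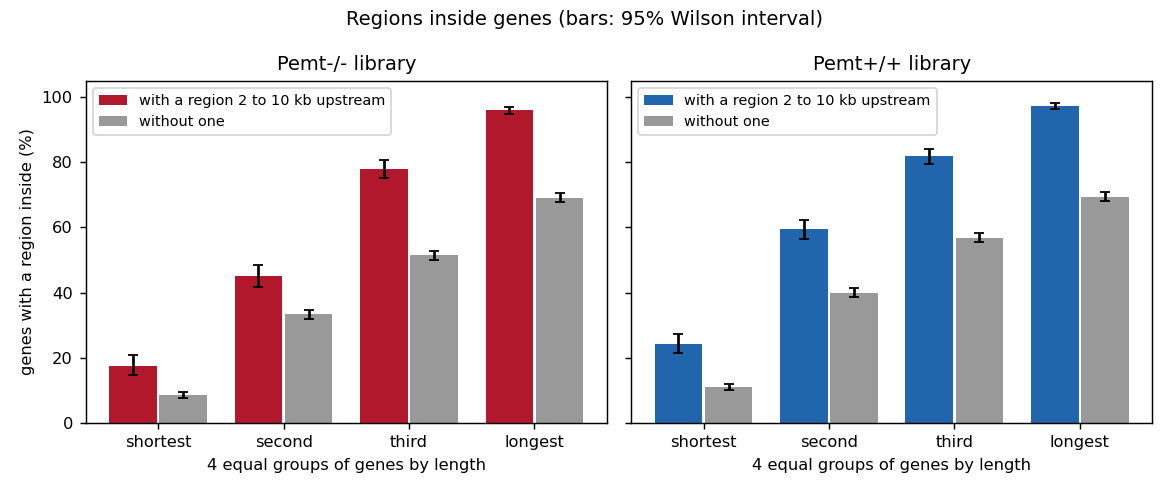
Percent of protein-coding genes with a listed region inside the gene (y axis) in 4 equal groups of genes by length (x axis, shortest to longest), for the Pemt-/- and the Pemt+/+ library; coloured bars are genes with a region 2 to 10 kb upstream, grey bars genes without one, and error bars are 95% Wilson intervals. The coloured bar is the higher one in all 4 groups of both libraries, from 17.6% against 8.51% to 96.1% against 69.1% in Pemt-/-.

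By chromosome, distal upstream regions were from 2.55% of all regions on chromosome 14 to 5.83% on chromosome 11 in Pemt-/-, and from 2.84% on chromosome 14 to 5.61% on chromosome 11 in Pemt+/+. Chromosome 7 came next with 5.46% and 5.21%. On chromosome X they were 32 of 1079 regions (2.97%) and 52 of 1707 (3.05%). None was found on chromosome Y, where only 31 and 48 regions were listed in all.

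Of the distal upstream regions, 3112 of Pemt-/- shared at least 1 bp with a region of Pemt+/+ (82.8%, 81.5 to 83.9%) and 3094 of Pemt+/+ overlapped a Pemt-/- region (59.4%, 58.1 to 60.7%). The other 648 regions (17.2%) were listed in Pemt-/- only, against 16.7% of all regions, and 2113 (40.6%) in Pemt+/+ only, against 38.4% of all regions. When the Pemt+/+ list was limited to as many top-scoring regions as the Pemt-/- list, 71.9% and 69.3% overlapped. Overlap was nearly one to one, so lists of equal length bring the 2 shares together by construction. The counterpart of an overlapping region was itself a distal upstream region in 98.7% of cases in Pemt-/- and 99.2% in Pemt+/+.

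Overlap followed the number of tags. In Pemt-/- it rose from 61.8% of regions with 8 to 9 tags to 90.0% with 13 to 16 tags and to all 73 regions with 40 or more. In Pemt+/+ it rose from 19.6% (15.9 to 24%) with 9 tags, the lowest number there, through 49.1% with 13 to 16 tags to 98.8% with 40 or more. The shares of all regions in the same ranges were 60.8%, 89.2% and 99.5% in Pemt-/- and 24.1%, 49.8% and 97.7% in Pemt+/+. Regions found in 1 library were also the smaller ones, with median tags of 10 in Pemt-/- and 12 in Pemt+/+, against 14 and 21 for the overlapping ones. They were seldom near misses, since the nearest region of the other library was a median of 4996.5 bp away for Pemt-/- and 7011 bp for Pemt+/+, and lay within 500 bp for 8.49% and 5.77%.

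**Figure D3:**
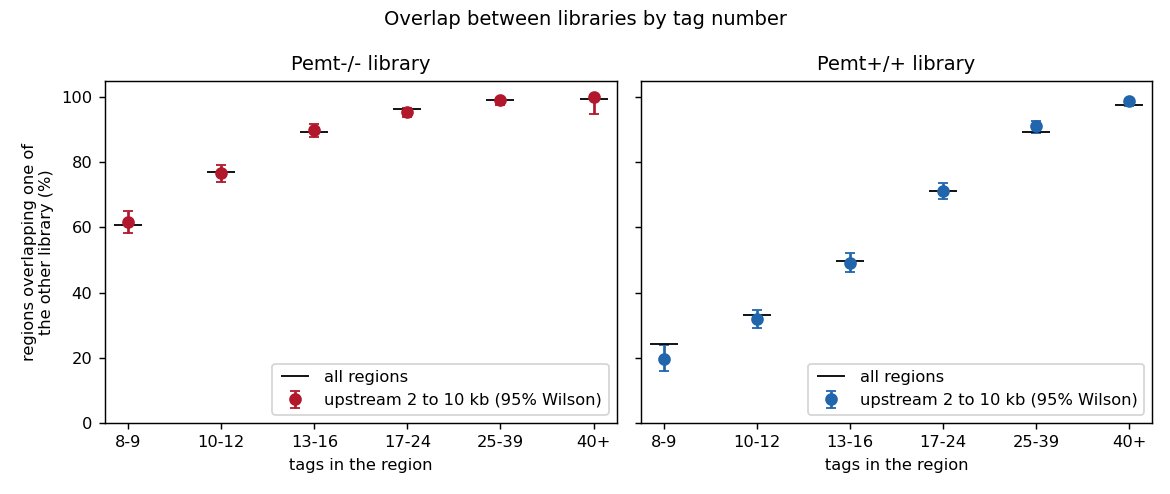
Percent of regions that overlap a region of the other library (y axis) by the number of tags in the region (x axis), for the Pemt-/- and the Pemt+/+ library; points are regions 2 to 10 kb upstream with 95% Wilson intervals and black dashes are all regions. The Pemt-/- points rise from 61.8% to 100%, the Pemt+/+ points from 19.6% to 98.8%, and both follow the dashes.

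The regions with the highest scores were found in both libraries. The largest lay 3338 bp upstream of Tmem125, on chromosome 4 from 118219669 to 118221411 (mm9), with 285 tags in the Pemt-/- library against 265 in the other. The region 6494 bp upstream of the 4.5S RNA gene Rn4.5s held 91 and 124 tags at a fold enrichment of 52.9 and 57.2, among the highest of the class. Genes of this RNA are present in many near-identical copies, so the placement of these reads is uncertain. Txndc11, a thioredoxin domain protein, had a region 9089 bp upstream with 110 tags in Pemt-/- and 85 in Pemt+/+. Tmem125 and Txndc11 thus held more tags in Pemt-/-, as did 331 of the paired distal upstream regions (10.9%) and 10.4% of all paired regions.

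Further regions of high score were 9042 bp upstream of 2810459M11Rik (50 and 85 tags), 5340 bp upstream of Tyro3, a receptor tyrosine kinase that helps clear dying cells (49 and 53), and 5945 bp upstream of Rtn4, a protein that shapes the endoplasmic reticulum (51 and 61). Those upstream of Gng2 (57 and 74) and Clec3b (51 and 62) were also among the 8 of highest score in Pemt-/-. In Pemt+/+ that group included regions upstream of Cux2, a homeobox factor (116 tags, and 49 in Pemt-/-), Dapk3 (60 and 48) and Nkain3 (53 and 39). The proto-oncogene Myc had a region 5449 bp upstream of its transcript, from 61811149 to 61811446 on chromosome 15, with 48 tags in Pemt+/+ and 28 in Pemt-/-.

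Among regions listed in 1 library, those of highest score in Pemt-/- held 16 tags upstream of 4933400N17Rik, 17 upstream of Mia2, 20 upstream of Fxr2, 18 upstream of Gltscr1 and 14 upstream of Klk7. Distal upstream regions of 13 to 16 tags in Pemt-/- overlapped a Pemt+/+ region in 90.0% of cases and those of 17 to 24 tags in 95.6%. For all regions the shares were 89.2% and 96.4%. In Pemt+/+ the highest held 39 tags upstream of Thumpd3, 37 upstream of the olfactory receptor gene Olfr1393, 29 upstream of 1700034E13Rik, 20 upstream of Sccpdh and 30 upstream of Myo16. In Pemt+/+ 91.1% of distal upstream regions with 25 to 39 tags had a counterpart in Pemt-/-, against 89.4% of all regions. With 17 to 24 tags, the range of the Sccpdh region, it was 71.3%, against 71.2% of all regions. For these regions no overlapping region was listed in the other library, which does not show that the DNA was unmethylated there, since a region needs at least 8 tags in Pemt-/- or 9 in Pemt+/+ to be listed.

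In 3024 cases a distal upstream region of one library overlapped exactly 1 of the other, and that 1 overlapped no further region. Tags of Pemt-/- divided by those of Pemt+/+ had a median in these pairs of 0.675 (95% interval of the median 0.667 to 0.688), and over all 79393 pairs of any position it was 0.682. The ends of paired regions differed by a median of 36 and 39 bp. After division by the ratio of 0.682, 62 pairs (2.05%) were at least 2-fold higher in Pemt-/-, against 2.12% of all pairs, and 64 (2.12%) were at least 2-fold lower, against 1.93%. Both shares were close to those of all pairs. The ratio moved with the number of tags, from a median of 0.8 in pairs with fewer than 30 tags in total to 0.58 in pairs with 100 or more, and over all regions from 0.786 to 0.622. A region must hold at least 8 tags to be listed, so a pair with fewer than 30 tags cannot be 2-fold lower in Pemt-/-, and none of these 1045 pairs was.

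**Figure D4:**
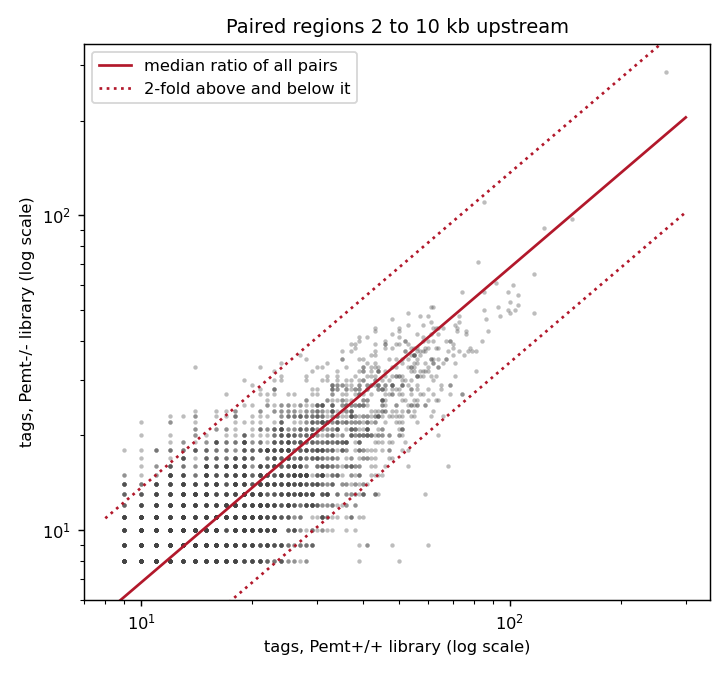
Tags in the 3024 paired regions 2 to 10 kb upstream, in the Pemt+/+ library (x axis, log scale) and in the Pemt-/- library (y axis, log scale), 1 point per pair; the solid line is the median ratio of all pairs, 0.682, and the dotted lines are 2-fold above and below it. Of the points, 62 lie on or above the upper dotted line and 64 on or below the lower, and the point at 265 and 285 tags is the region upstream of Tmem125.

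Among pairs with at least 30 tags in total, the ratio was highest 8630 bp upstream of Cic, a transcriptional repressor, with 33 tags in Pemt-/- and 14 in Pemt+/+. The region called there was wider in Pemt-/- (26057152 to 26058567 on chromosome 7) than in Pemt+/+ (26057142 to 26057716). The region 8724 bp upstream of Wnt8a, a Wnt ligand, held 22 and 10 tags, that 5376 bp upstream of Ptk2, the focal adhesion kinase, 20 and 10, that 3120 bp upstream of Agmat, which hydrolyses agmatine, 23 and 12, and that 9954 bp upstream of the kinesin gene Kif14 22 and 12. Pemt-/- held from 64.7 to 70.2% of the tags of these 5 pairs, where the median pair had 40.5%. All 5 regions were called wider in Pemt-/- than in Pemt+/+, by little at Wnt8a and Agmat.

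The ratio was lowest 5394 bp upstream of Morn3, where 9 tags stood against 60. There followed regions upstream of Fbn2, an extracellular microfibril protein (8 and 50 tags), Ppp4r1 (9 and 48), Fam134b, a receptor for the turnover of endoplasmic reticulum (8 and 39) and the embryonic myosin gene Myh3 (9 and 41). Pemt-/- held from 13% (7.02 to 23.0%) of the tags at Morn3 to 18.0% (9.77 to 30.8%) at Myh3. All 5 regions were at or next to the lowest tag number listed in Pemt-/-. They were also called wider in Pemt+/+, as at Ppp4r1 (66127785 to 66129065 on chromosome 17, against 66128632 to 66129096 in Pemt-/-). The part of width in the highest and lowest ratios was not tested. These 10 pairs were picked as the extremes of 1979 pairs, and their ratios are a description.

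Genes were also followed through 8 lists of liver and methylation genes, in all 210 genes. A distal upstream region was found for 36 of them in Pemt-/- (17.1%) and 49 in Pemt+/+ (23.3%), 29 of them in both. Among all protein-coding genes the shares were 15.8% and 20.5%, and the share of each list below is to be read beside these. The lists held 33 paired regions with a median ratio of 0.638, ranging from 0.375 to 1.67, against 0.682 over all pairs. A 2-fold difference after division by that ratio was reached by 1 of them, higher in Pemt-/-, and by none in the other direction.

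**Figure D5:**
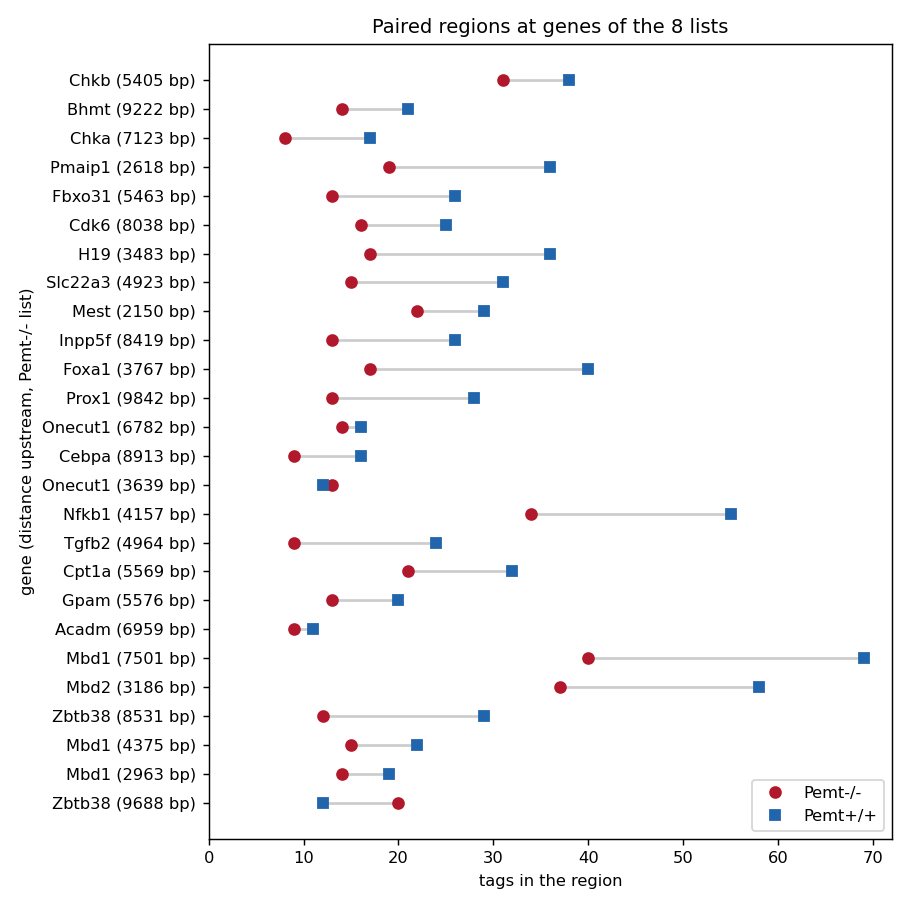
Tags (x axis) in paired regions 2 to 10 kb upstream of named genes of the 8 lists, with the gene and its distance in the Pemt-/- list on the y axis; red circles are the Pemt-/- and blue squares the Pemt+/+ library. The blue square lies to the right except at a region of Onecut1 (13 and 12 tags) and a region of Zbtb38 (20 and 12 tags). Genes were plotted for the most tags in either library. Among list pairs not plotted, others also held more tags in Pemt-/-, with 12 against 10 and 14 against 13.

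Hepatocyte transcription factors had a distal upstream region in 5 of 18 genes in each library, 4 of them in both. That was 27.8% in each, beside 15.8% (Pemt-/-) and 20.5% (Pemt+/+) of all protein-coding genes. Foxa1, a pioneer factor that opens chromatin at liver enhancers, had a region 3767 bp upstream on chromosome 12 (58650875 to 58651657) with 17 tags in Pemt-/- and 40 in Pemt+/+. Prox1, a homeobox factor of liver development, had 13 and 28 tags 9842 bp upstream, and Cebpa, a factor of hepatocyte differentiation, had 9 and 16 tags 8913 bp upstream. Onecut1 had 2 regions, with 13 and 14 tags in Pemt-/- and 12 and 16 in Pemt+/+. After division by the median ratio of all pairs, their ratios were 1.59 and 1.28, short of 2-fold. The 5 pairs of this list had ratios from 0.425 to 1.08. Among genes of secreted hepatocyte proteins, 2 of 25 had a region in each library (8%, beside 15.8% and 20.5% of all protein-coding genes), and no gene had one in both. The regions were upstream of Trf, transferrin (14 tags), and Fgg, a fibrinogen chain (11 tags), in Pemt-/-, and of Cp, ceruloplasmin (10 tags), and F2, prothrombin (9 tags), in Pemt+/+.

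In fatty acid and triglyceride metabolism 5 of 38 genes (13.2%) had a region in Pemt-/- and 8 (21.1%) in Pemt+/+, the 5 being among the 8. The best covered lay upstream of Cpt1a, the enzyme that admits long-chain fatty acids to mitochondria, at 5569 bp on chromosome 19 (3317400 to 3317731), with 21 tags in Pemt-/- and 32 in Pemt+/+ and a fold enrichment of 42.9 and 43.7. Gpam, the first enzyme of glycerolipid synthesis, had 13 and 20 tags 5576 bp upstream. Acadm, medium-chain acyl-CoA dehydrogenase, had a pair with 9 and 11 tags and a second region of 19 tags in Pemt+/+ only. Pnpla3, a lipid droplet protein, had 25 tags 7464 bp upstream in Pemt+/+ only. The 5 pairs of the list had ratios from 0.556 to 1.2.

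Of the genes of phosphatidylcholine and one-carbon metabolism, 5 of 29 (17.2%) had a region in Pemt-/- and 9 (31.0%) in Pemt+/+, 4 of them in both. Pemt itself had a region 3113 bp upstream of its transcript, on chromosome 11 from 59853454 to 59853842, with 16 tags in Pemt+/+ and no counterpart in Pemt-/-. About equal numbers of Pemt+/+ regions with 13 to 16 tags had and lacked a counterpart, as 49.1% of them (46.2 to 52.1%) overlapped a Pemt-/- region. Inside Pemt, 2 regions were listed in each library and overlapped between them, with 31 and 19 tags in Pemt-/- and 35 and 25 in Pemt+/+. Captured regions say nothing of the deletion, and the labels were not checked by them. Chkb, a choline kinase of the other route to phosphatidylcholine, had a region 5405 bp upstream with 31 tags in Pemt-/- and 38 in Pemt+/+. Its paralogue Chka had 8 and 17 tags 7123 bp upstream and a further region of 11 tags in Pemt+/+ only. Bhmt, which remethylates homocysteine with betaine, had 14 and 21 tags 9222 bp upstream. The 4 pairs of the list had ratios from 0.471 to 0.816.

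Writers, erasers and readers of DNA methylation had a region in 4 of 17 genes (23.5%) in Pemt-/- and 5 (29.4%) in Pemt+/+, the 4 being shared. Mbd1, a methyl-CpG-binding protein, had 3 regions in each library, with 14, 15 and 40 tags in Pemt-/- and 19, 22 and 69 in Pemt+/+ from the nearest to the farthest. Mbd2, a reader of the same family, had 37 and 58 tags 3186 bp upstream. Zbtb38, a zinc finger protein that binds methylated DNA, had a pair of regions that went opposite ways, with 12 tags in Pemt-/- against 29 in Pemt+/+ at 8531 bp, and 20 against 12 at 9688 bp. The latter was the pair of the 8 lists past 2-fold, and Pemt-/- held 62.5% of its tags (45.3 to 77.1%). Its region was called wider in Pemt-/- (96641782 to 96642335 on chromosome 9) than in Pemt+/+ (96642069 to 96642320). The tags were thus counted over unlike widths, and the part of width in this difference was not tested. Tet2, a dioxygenase that oxidises methylcytosine, had 2 regions of 12 and 18 tags in Pemt+/+ only.

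In the list of the p53 response, apoptosis and cyclin D, 4 of 24 genes (16.7%) had a region in Pemt-/-. In Pemt+/+ 7 genes (29.2%) had one, again including the 4. Fbxo31, an F-box protein that targets cyclin D1 for degradation, had a region 5463 bp upstream on chromosome 8 (124108169 to 124108648) with 13 tags in Pemt-/- and 26 in Pemt+/+, and Pemt-/- held 33.3% of the tags (20.6 to 49%), an interval that includes the 40.5% of the median pair. A second region upstream of Fbxo31, at 7538 bp, held 18 tags in Pemt+/+ and was not listed in Pemt-/-, and it lay nearer to Map1lc3b. Pmaip1, a pro-apoptotic target of p53, had 19 and 36 tags 2618 bp upstream and a further region of 10 tags in Pemt+/+ only. Cdk6, a partner of D-type cyclins, had 16 and 25 tags 8038 bp upstream, and Mdm2, the ubiquitin ligase of p53, had regions of 18 and 10 tags in Pemt+/+ only.

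Genes of fibrosis and inflammation had a region in 7 of 28 cases (25.0%) in each library, 4 of them in both. Nfkb1, a subunit of NF-κB, had 34 tags in Pemt-/- and 55 in Pemt+/+ 4157 bp upstream. Tgfb2, a profibrotic cytokine, had 9 and 24 tags 4964 bp upstream, the lowest ratio of the lists at 0.375. Il1b, with 26 tags 7522 bp upstream, and Spp1, osteopontin, with 17 tags 9077 bp upstream, had a region in Pemt+/+ only.

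Imprinted genes are expressed from a single parental allele, some of them only in certain tissues or transcripts. They had a region in 4 of 31 cases (12.9%) in Pemt-/- and 6 (19.4%) in Pemt+/+, with the 4 in common. The imprinting control region of H19 and Igf2, methylated on the paternal allele, is known to lie in this stretch upstream of H19. A region there was listed in both libraries, on chromosome 7 from 149767534 to 149768110 with 17 tags in Pemt-/- and from 149766763 to 149768082 with 36 tags in Pemt+/+, 3483 and 2712 bp from the transcript. Pemt-/- held 32.1% of the tags (21.1 to 45.5%). Mest had 22 and 29 tags 2150 bp upstream, Slc22a3, an organic cation transporter, 15 and 31 tags 4923 bp upstream, and Inpp5f 13 and 26 tags 8419 bp upstream. The 4 pairs had ratios from 0.472 to 0.759.

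The shorter list of each library was compared by position. Of the distal upstream regions, 94 of Pemt-/- (2.5%, against 2.13% of all regions) and 252 of Pemt+/+ (4.84%, against 4.59%) stood in the shorter list of the same library with the same start, end and tags. What the shorter lists compare is not stated in the records. Most of these, 92.6% in Pemt-/- and 82.5% in Pemt+/+, had no counterpart in the longer list of the other library, close to the 92% and 81.2% of all regions found in both lists of a library. The deposited false discovery rate was 100% for all 94 in Pemt-/-, and from 21.95 to 38.46% in Pemt+/+, so that none reached 5% in either library. Those of highest score in Pemt-/- lay upstream of Txndc11 (110 tags), Wnt8a (22), Olfr658 (17), 4933400N17Rik (16) and Gm6957 (13). In Pemt+/+ they included regions upstream of Cux2 (116), Olfr1378 (51), Zfp414 (69) and Adcy6 (62), whose counterparts in Pemt-/- held 49, 18, 27 and 24 tags.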

How the data were processed

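Liver DNA was sequenced as 1 Pemt-/- and 1 Pemt+/+ library after capture of methylated DNA. The authors deposited 2 lists of enriched regions per library. The submitters' processing notes name CASAVA version 1.8.2, Bowtie and the build mm9. Region names are those that MACS gives, and its settings and control are not given in the sources used here. Tags are deposited as raw counts of reads per region. The deposited fold enrichment is a ratio over background. The authors' score is 10 times the −log10 p-value, with a lowest value of 50, and the deposited FDR is a percent. The handling of duplicate reads, which changes tag numbers, is not given there either. Score and fold of the shorter lists hold what may be the authors' comparison of the libraries and were not used.

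Each region was used once. Overlap meant at least 1 bp, and pairs were regions overlapping one to one. Tag ratios were divided by the median ratio of all pairs. No test was run. Shares have Wilson 95% intervals. Gene names and lengths came from RefSeq on GRCm38.p6, and all 210 list genes matched. The regions and the gene lists were chosen with earlier results of these data known.

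Genes were named by rule, namely the 8 highest-scoring regions overlapping a distal upstream region of the other library, the 5 highest-scoring in 1 library only, the 5 pairs of highest and of lowest ratio with at least 30 tags, the 5 highest-scoring in the shorter list, the 5 genes with most regions, up to 4 genes of each list with the most tags, the regions nearest the distance limits, and Pemt. An item named by this rule is not reported here. Regions in the shorter lists were ranked by their score in the longer list, a reading of the rule made because the shorter lists' score was not used. The 5 promoters printed, of 11 that met the same conditions, were picked after the values were seen, as was the comparison by gene length. Python 3.11.15, pandas 2.3.3, NumPy 2.4.6, SciPy 1.17.1 and matplotlib 3.10.9 were used, and overlaps, ratios and classes were tested on simulated data.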

Additional observations from a re-analysis of the deposited data

How the results depend on the processing

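Of 79 values recomputed under other settings, 54 stayed within the 95% interval of the reported value, or within 1.5 times a reported count. Among the top 50% of regions by score in each library, 1941 distal upstream regions remained in Pemt-/- and 2607 in Pemt+/+, their share of the Pemt-/- list was 4.0%, overlap was 77.5% and 57.0%, the shorter lists held 38 and 163, genes of the 8 lists numbered 19 and 28, and the median tag ratio was 0.652 with 15 pairs at least 2-fold higher and 11 lower. When an overlap had to span 50% or more of each region of the pair, 77.8% and 55.8% overlapped. With lists of equal length, 71.9% and 69.3% overlapped and the median ratio was 0.643. The median ratio of all pairs was recomputed under each setting and is not given here. The ratios of 0.652 and 0.643 therefore cannot be read against the 0.682 of all pairs in the main setting. Without regions that also lie downstream of a transcript, the shares of all regions were 3.25% and 3.34%. With a lower limit of 5 kb, 2312 and 3226 regions remained (2.38% and 2.46%), 167 stood in the shorter Pemt+/+ list and 39 pairs were at least 2-fold higher. The balance of pairs 2-fold higher and lower, 62 and 64 as reported, was not stable in direction, with 52 and 51 under the stricter overlap and 52 and 48 with lists of equal length. Fewer regions enter each of the top 50% and 5 kb counts by construction. Autosomes only and NM transcripts only moved none of the values recomputed with them past these limits. No paired analysis was possible because there was a single library of each genotype. With medians of 13 and 16 tags per region, the counting intervals of single pairs are wide, as at Fbxo31, where they ran from 20.6 to 49% of the tags, and regions below 8 tags in Pemt-/- or 9 in Pemt+/+ do not appear in the lists.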
